A study of Mus musculus with 15 samples.

Results

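Myc and 39 genes of ribosome biogenesis were followed in E0771 cells, a mouse mammary carcinoma line, that carried either 1 of 4 Malt1 constructs or the empty vector. The 40 genes were the rows of the deposited count table with the listed symbols. All 40 were present among its 55571 rows, and all 40 were among the 14571 genes with enough counts to be tested. MALT1 is a paracaspase that joins CARD proteins and BCL10 upstream of NF-kB, as a scaffold and as a protease. Each group had 3 libraries: a form called PD in the labels (Malt1_PD), substitutions V87R and L88D (Malt1_V87R and Malt1_L88D), the wild type (Malt1_WT) and the empty vector (Vector). The Malt1_PD values stood in columns named for a cysteine substitution, and the labels do not spell PD out. All 5 groups were the same cell line, labelled as cancer cells, and the series title describes cells without T cell coculture. The labels give no age, treatment or time, and name neither the promoter behind the constructs nor whether cells were pooled or cloned. Whether replicates came from different cultures is not stated, so the spread that p-values rest on may be technical.

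Ribosome biogenesis starts in the nucleolus, where RNA polymerase I copies ribosomal DNA into a long precursor. Small nucleolar ribonucleoproteins (snoRNPs) then modify that RNA, the box C/D class by 2′-O-methylation and the box H/ACA class by pseudouridylation, while the small-subunit processome and the large-subunit assembly factors cut, fold and export it. MYC, a transcription factor that binds DNA with MAX at E-boxes, is known to drive many genes of this pathway, and tumour cells often depend on it. The 40 genes were ordered here by role: Myc itself, 4 RNA polymerase I subunits, 4 box C/D and 5 box H/ACA snoRNP proteins or partners, 12 small-subunit factors, 11 large-subunit factors and 3 other abundant nucleolar proteins. All levels are in counts per 1e6 counts of a library (CPM), and so are a share of that library. A change in the total RNA of a cell is not visible on that scale, and in bulk libraries fewer cells expressing a gene and less RNA per cell cannot be told apart.

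The canonical E-box to which MYC and MAX bind is CACGTG, which is its own reverse complement. Promoter windows from RefSeq (GRCm38.p6, 250 bases before to 50 after the start) were found for 35 of the 40 genes. Myc, Fbl, Rrp12, Bop1 and Npm1 had none. The motif occurred in the windows of 8 of the 35 genes, or 22.9%, against 8.09% of 27025 genes with a window. The 8 stretches are shown because they are the members whose own promoter window carries the motif. They run 5′ to 3′ on the gene's strand, with the motif in capitals, and are cut short where the window ends.
Nop2: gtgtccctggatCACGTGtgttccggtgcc
Ltv1: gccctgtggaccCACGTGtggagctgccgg
Utp20: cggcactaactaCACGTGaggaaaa
Pes1: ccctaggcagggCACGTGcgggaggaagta
Mybbp1a: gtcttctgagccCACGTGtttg
Tsr1: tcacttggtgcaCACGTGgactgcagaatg
Utp18: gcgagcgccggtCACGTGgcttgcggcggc
Wdr43: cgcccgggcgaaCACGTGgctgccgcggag
The Nop2 stretch lies at chr6:125131811-125131840 on the plus strand and the Utp18 stretch at chr11:93885769-93885798 on the minus strand. In these genes the motif stood 60 and 20 bases before the start, whereas in the other 6 it lay between 3 and 41 bases after it. The bases around the motif differed among the 8. Of the 8 genes with the motif, 6 fell in Malt1_WT against Vector, and of the 27 with a window and no motif, 12 fell and 2 rose, where 27.7% of all genes tested fell. The calls of Nop2 and Mybbp1a among the 6 and of Polr1e among the 12 were lost under 10 or more of 23 other settings. In Malt1_L88D against Vector, 1 of the 8 and 11 of the 27 fell, where 8.43% of all genes fell. In Malt1_PD against Malt1_WT, 2 of the 8 and 13 of the 27 rose, where 12.6% of all genes rose. Among genes in the 40 genes' range of mean CPM, these shares were 38.0%, 13.6% and 21.1% in the same order of comparisons. Some calls of the latter 2 comparisons were also lost under 10 or more of 23 other settings. These were Nop58 and Gnl3 among the 11, Ltv1 among the 2, and Polr1e, Dkc1 and Nip7 among the 13. A match describes letters only, and binding was not measured.

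Library totals ran from 15471746 to 21458457 counts, and the lowest count of any of the 40 genes in a library was 261. Malt1 was at 243 to 260 CPM in Malt1_PD, 279 to 281 CPM in Malt1_V87R, 245 to 258 CPM in Malt1_L88D, 193 to 208 CPM in Malt1_WT and 26.4 to 30.2 CPM in Vector. Vector was lowest by a wide margin. Malt1 also differed among the constructs. It was higher than in Malt1_WT by 1.24-fold in Malt1_PD, 1.38-fold in Malt1_V87R and 1.24-fold in Malt1_L88D. Each of these had an adjusted p under 0.05 in the tests described below. The part of this difference in the comparisons against Malt1_WT was not tested. Of 8 epithelial and carcinoma markers, Krt8 was at 86.3 to 122 CPM and Epcam at 5.10 to 10.5 CPM, while Krt18, Krt7, Krt19, Cdh1 and Cldn4 stayed under 1 CPM in every library. Of 10 fibroblast markers, Pdgfra, Pdgfrb and Col3a1 were at 118 to 180, 89.1 to 126 and 115 to 142 CPM and Col1a1 and Dcn at 9.27 to 19.0 CPM, while Col1a2, Lum, Fap, Postn and Thy1 stayed under 1 CPM in every library. Malt1_PD replicate 2 stood farthest from its group, with chi-square values per gene of 8.89 and 6.16 from the other libraries. Vector replicates 1 and 2 stood at 7.08 from each other, and all other pairs within a group at up to 3.71. The groups also differed in genes of cell division, with values given beside the comparisons. Tests came from edgeR's quasi-likelihood fit over all 15 libraries, adjusted by Benjamini-Hochberg over all 14571 genes. "Rose" and "fell" below mean an adjusted p under 0.05. The ± of a CPM is the SD over n = 3 libraries and the ± of a log2 fold change its standard error. The 8 comparisons share their Vector and Malt1_WT libraries and are not independent of one another.

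The 40 genes spanned a 504-fold range of level per length. In Vector, the histone chaperone gene Npm1 was the most abundant per length, at 796 CPM per kb of annotated exon, and Myc came next at 244 CPM per kb. Wdr12 was lowest, at 1.67 CPM per kb. Ncl, which encodes nucleolin, lay near the bottom at 7.26 CPM per kb. Its annotated exons contain 3 small-RNA genes, and the annotation used for counting is not given in the sources used here. Differences between groups were small beside this range: the ratio of the highest to the lowest group mean had a median of 1.16 over the 40 genes and a maximum of 1.46, in Myc.

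**Figure D1:**
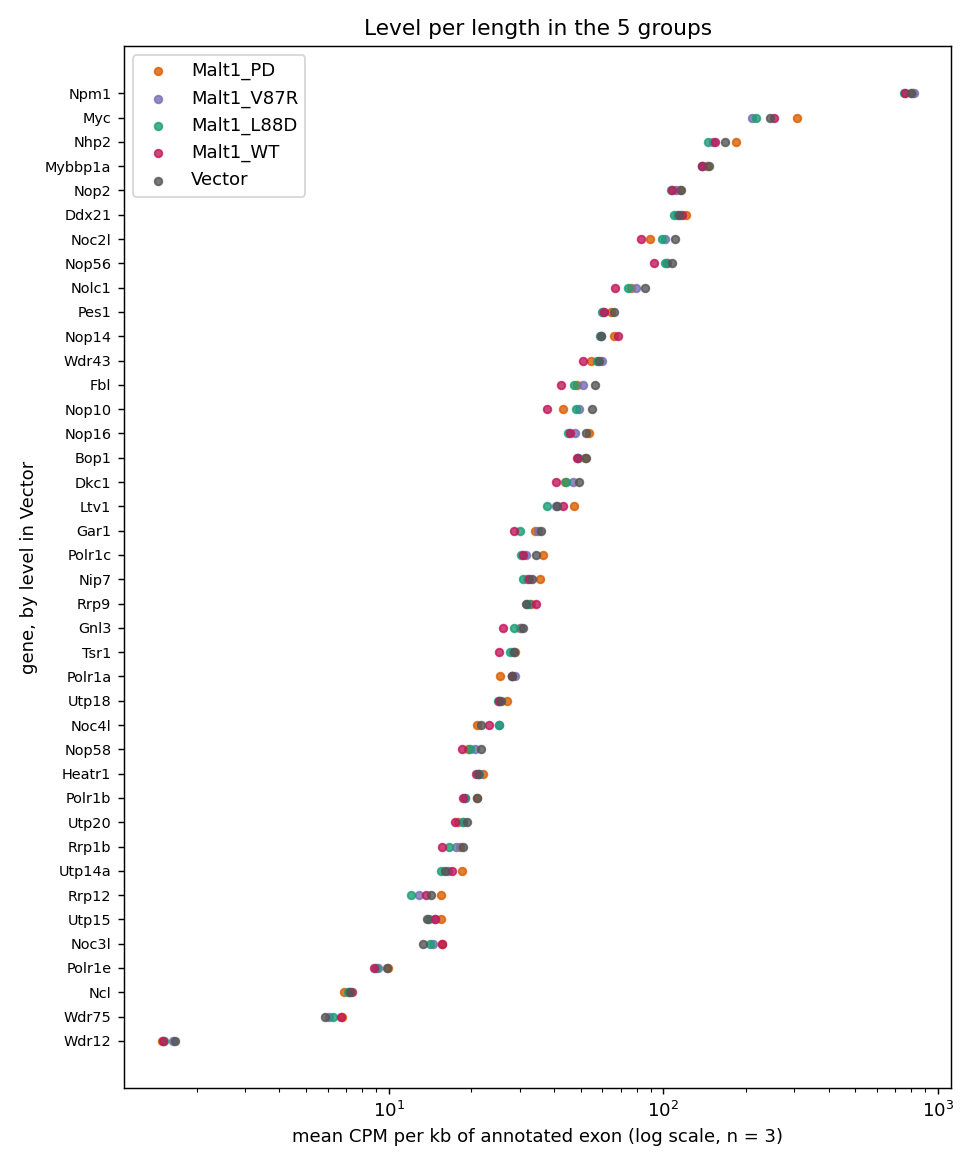
Mean CPM per kb of annotated exon (log scale, n = 3 libraries) for each of the 40 genes, 1 row per gene in the order of the Vector level, with 1 point per group. Npm1 and Myc stood above the rest and Wdr12 below it, and the 5 points of a gene lay close together compared with the distance between genes.

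Across the 5 groups, 30 of the 40 genes differed, 75% of them, against 61.0% of all genes tested. The highest group mean was in Vector for 17 genes and in Malt1_PD for 16, and the lowest was in Malt1_WT for 18 and in Malt1_L88D for 13. Summed over the 40 genes, the level was 9944, 9481 and 9880 CPM in Malt1_PD, 9362, 9383 and 9541 CPM in Malt1_V87R, 9211, 9147 and 8907 CPM in Malt1_L88D, 9146, 9178 and 8884 CPM in Malt1_WT, and 9978, 9601 and 9581 CPM with the vector. The Malt1_WT and Malt1_L88D sums overlapped and lay below all sums of the other 3 groups. For Malt1_L88D this depended on whether Npm1, the gene of highest CPM among the 40, and Ncl were summed. Without these genes, Malt1_L88D replicate 1 summed to 7128.8 CPM and Malt1_V87R replicate 2 to 7127.7 CPM, so these groups overlapped narrowly.

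**Figure D2:**
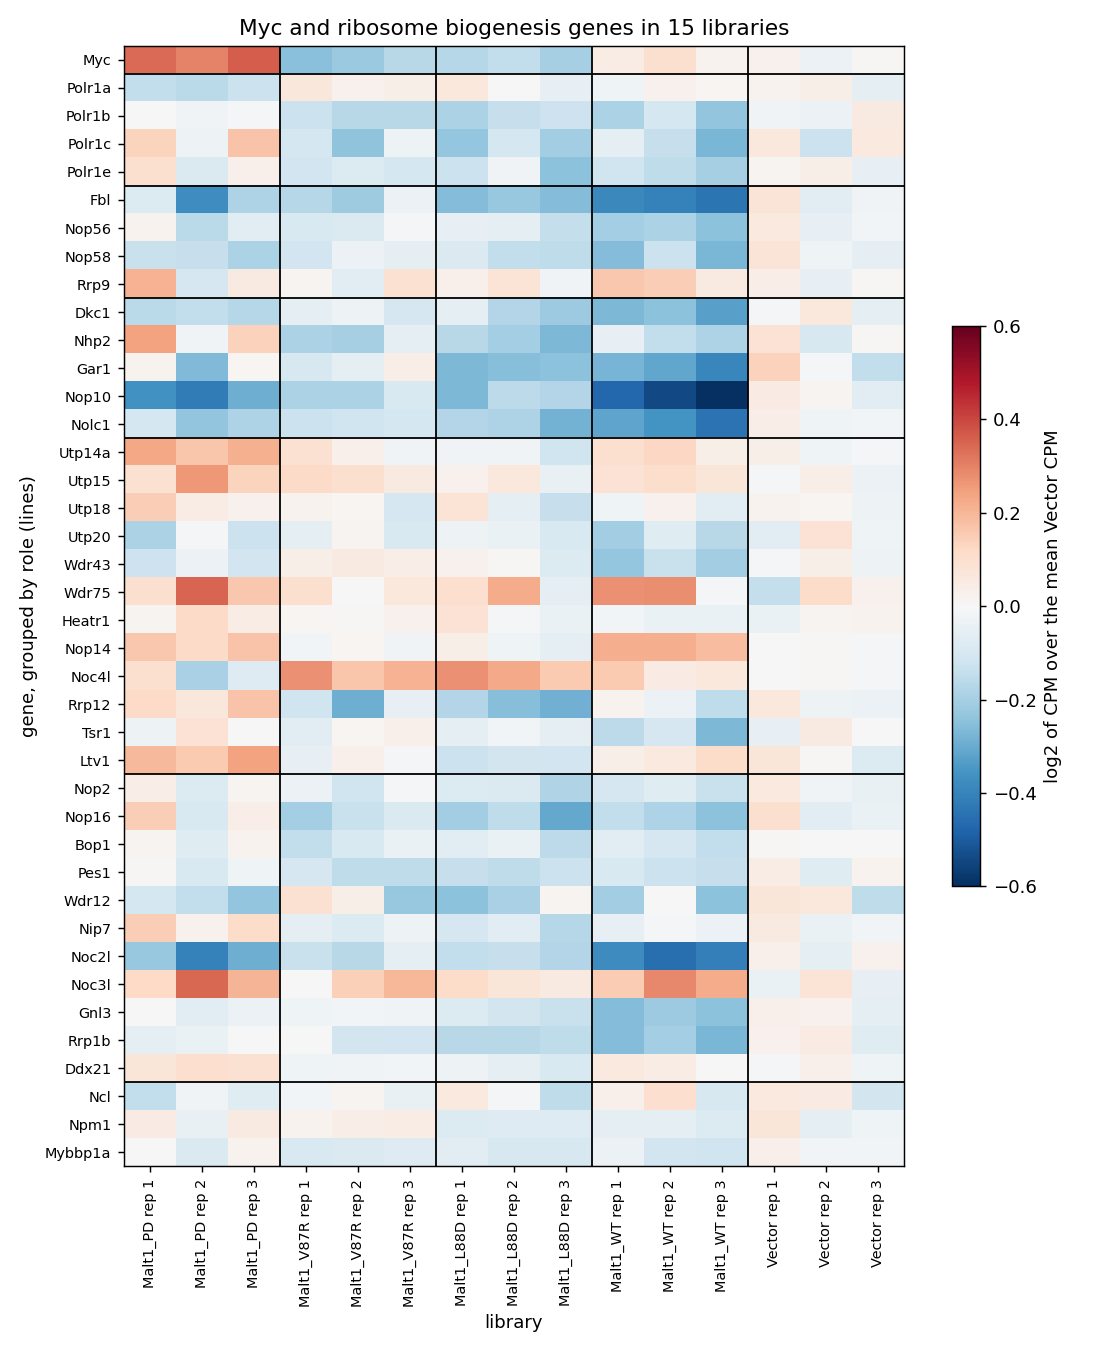
Level of each of the 40 genes (rows, grouped by role between lines) in each of the 15 libraries (columns), as log2 of CPM over the mean Vector CPM of that gene. Blue, a level below the Vector mean, was deepest in the Malt1_WT columns for Nop10, Noc2l, Fbl and Nolc1, and Myc was red in the Malt1_PD columns and blue in those of Malt1_V87R and Malt1_L88D.

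Myc (GRCm38 chr15:61985391-61990374, plus strand) separated the forms of Malt1 more clearly than any other listed gene, with the smallest p of the 40 over the 5 groups (adjusted p = 1.6e-13). It had 841, 815 and 854 CPM in Malt1_PD, 557, 569 and 591 CPM in Malt1_V87R, 589, 598 and 578 CPM in Malt1_L88D, 684, 708 and 674 CPM in Malt1_WT, and 676, 647 and 667 CPM with the vector. Every Malt1_PD library lay above all others, and every Malt1_V87R and Malt1_L88D library lay below all Malt1_WT and Vector libraries. Malt1_WT and Vector overlapped, as did Malt1_V87R and Malt1_L88D. Myc rose 1.26-fold in Malt1_PD against Vector (log2 fold change 0.33 ± 0.03, adjusted p = 3.3e-09) and 1.21-fold against Malt1_WT (0.28 ± 0.03, adjusted p = 5.0e-07). It fell in both substitutions against Vector, with log2 fold changes of -0.21 ± 0.03 in Malt1_V87R and -0.17 ± 0.03 in Malt1_L88D, and against Malt1_WT, with -0.27 ± 0.03 and -0.23 ± 0.03. In Malt1_WT against Vector the log2 fold change was 0.05 ± 0.03 and did not pass the test (adjusted p = 0.2).

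The summed level of the 40 genes did not follow the order of Myc. Malt1_V87R had the lowest Myc and a summed level of the 40 genes above that of Malt1_WT, whose Myc was higher. Single genes came nearer to Myc. The group means of Ltv1 and Ddx21 ran from Malt1_PD over Malt1_WT, Vector and Malt1_V87R down to Malt1_L88D. That is the order of Myc except that Malt1_V87R and Malt1_L88D changed places.

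**Figure D3:**
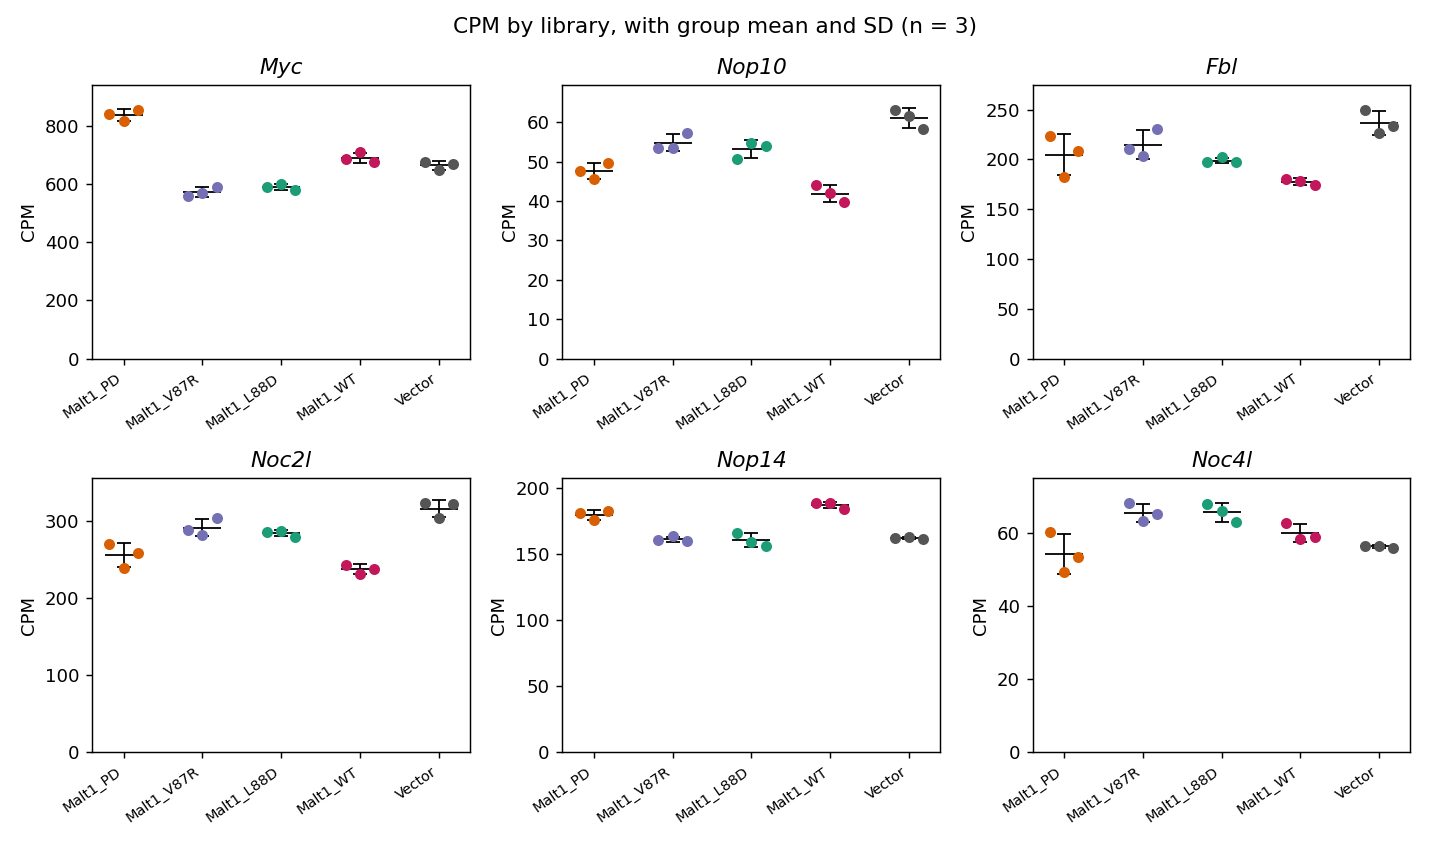
CPM in each library (points) with the group mean and SD (n = 3), for Myc and 5 other genes, on linear axes from 0. Myc was highest in Malt1_PD and lowest in Malt1_V87R and Malt1_L88D, Nop10, Fbl and Noc2l were lowest in Malt1_WT, Nop14 was highest in Malt1_WT, and Noc4l was highest in Malt1_V87R and Malt1_L88D.

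Of the 4 RNA polymerase I subunits, Polr1b and Polr1e fell in Malt1_WT against Vector, and Polr1b, Polr1c and Polr1e rose in Malt1_PD against Malt1_WT. Of all genes tested, 27.7% fell in the former comparison and 12.6% rose in the latter. Polr1b, which forms the active centre together with Polr1a, had 122, 120.1 and 121 CPM in Malt1_PD, 112, 109 and 109 CPM in Malt1_V87R, 107, 111 and 112 CPM in Malt1_L88D, 107, 114 and 103 CPM in Malt1_WT, and 120.2, 119 and 127 CPM with the vector. The Malt1_PD and Vector libraries lay above all 9 others. Its log2 fold change was -0.18 ± 0.04 in Malt1_WT against Vector (adjusted p = 0.00098) and 0.17 ± 0.04 in Malt1_PD against Malt1_WT.

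Polr1a, the largest subunit, took another course. It had 301, 298 and 304 CPM in Malt1_PD, 349, 339 and 341 CPM in Malt1_V87R, 348, 334 and 322 CPM in Malt1_L88D, 327, 339 and 336 CPM in Malt1_WT, and 337, 341 and 321 CPM with the vector. All 3 Malt1_PD libraries were below all others. The other 4 groups overlapped, except that the lowest Malt1_V87R library (339.2 CPM) lay just above the highest of Malt1_WT (338.6 CPM). It fell in Malt1_PD by 0.15 on the log2 scale against both Vector (adjusted p = 0.0017) and Malt1_WT (adjusted p = 0.0034). Polr1c, shared with RNA polymerase III, and Polr1e, a subunit with roles in initiation and elongation, had log2 fold changes of 0.25 and 0.18 in Malt1_PD against Malt1_WT. Both calls of Polr1e were lost under 10 or more of 23 other settings. Exons of Polr1a overlap Gm26628 on the opposite strand, and the strand setting of the counting is not given.

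The methylation machinery of box C/D fell in Malt1_WT against Vector for 3 of its core proteins, where 27.7% of all genes fell. Fbl, the methyltransferase fibrillarin, had 223, 183 and 208 CPM in Malt1_PD, 210.0, 204 and 231 CPM in Malt1_V87R, 197, 202 and 197 CPM in Malt1_L88D, 181, 178 and 174 CPM in Malt1_WT, and 249.7, 226 and 233 CPM with the vector. The 3 Malt1_WT libraries were the lowest of all and lay close together, whereas those of Malt1_PD were more spread. Fbl fell in Malt1_WT against Vector by 0.41 on the log2 scale (± 0.06, adjusted p = 2.4e-06), in Malt1_PD by 0.21 and in Malt1_L88D by 0.25. Against Malt1_WT it rose in all 3 mutants, with log2 fold changes of 0.20 in Malt1_PD, 0.27 in Malt1_V87R and 0.16 in Malt1_L88D.

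Nop58, a scaffold protein of the same particle, had 212, 211 and 204 CPM in Malt1_PD, 215, 227 and 224 CPM in Malt1_V87R, 219, 209.7 and 209 CPM in Malt1_L88D, 194, 212 and 192 CPM in Malt1_WT, and 246, 228 and 224 CPM with the vector. Its Malt1_WT and Vector libraries did not overlap, and the mutants lay between or among them. It fell in Malt1_WT (log2 fold change -0.22 ± 0.04), Malt1_PD (-0.16 ± 0.04) and Malt1_L88D (-0.13 ± 0.04) against Vector. The partner scaffold Nop56 fell in Malt1_WT (-0.21 ± 0.04) and rose in all 3 mutants against Malt1_WT, by 0.15 in Malt1_PD, 0.15 in Malt1_V87R and 0.13 in Malt1_L88D. Rrp9, which binds the U3 snoRNA of the small-subunit processome, passed no test, with log2 fold changes from -0.11 in Malt1_V87R against Malt1_WT to 0.12 in Malt1_WT against Vector. Exons of Nop56 and Nop58 contain snoRNA genes, and those of Nop56 and Rrp9 overlap Idh3b and Parp3 on the other strand.

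Of the 5 box H/ACA genes, 4 fell in Malt1_WT against Vector, with a median log2 fold change of -0.33. All 5 fell in Malt1_L88D against Vector and all 5 rose in Malt1_PD against Malt1_WT. Of all genes tested, 27.7%, 8.43% and 12.6% did so in these comparisons, in that order. Nop10, a small core protein of the particle (GRCm38 chr2:112261926-112263269, plus strand), had 47.5, 45.6 and 49.8 CPM in Malt1_PD, 53.5, 53.6 and 57.3 CPM in Malt1_V87R, 50.7, 54.8 and 54.1 CPM in Malt1_L88D, 44.0, 41.9 and 39.7 CPM in Malt1_WT, and 63.2, 61.6 and 58.3 CPM with the vector. Vector was highest, without overlap with any other group, and Malt1_WT was lowest, again without overlap. Nop10 fell in Malt1_WT against Vector with a log2 fold change of -0.54 ± 0.06 (adjusted p = 3.0e-09), the largest change of any of the 40 genes in the 8 comparisons. It also fell in Malt1_PD (-0.36) and Malt1_L88D (-0.20). Against Malt1_WT it rose by 0.19 in Malt1_PD, 0.39 in Malt1_V87R and 0.35 in Malt1_L88D.

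Nolc1, a nucleolar phosphoprotein that chaperones snoRNPs, had 317, 290.1 and 301 CPM in Malt1_PD, 312, 314 and 318 CPM in Malt1_V87R, 302, 301 and 281 CPM in Malt1_L88D, 274, 266 and 251 CPM in Malt1_WT, and 351, 336 and 338 CPM with the vector. Its 3 Malt1_WT libraries were below all others and its 3 Vector libraries above all others. The log2 fold change was -0.37 ± 0.04 in Malt1_WT against Vector (adjusted p = 8.9e-09). Dkc1, the pseudouridine synthase dyskerin, had 181 ± 1.63 CPM in Malt1_PD, 194 ± 4.74 in Malt1_V87R, 183 ± 10.7 in Malt1_L88D, 167 ± 4.64 in Malt1_WT and 203 ± 8.44 with the vector. It fell in Malt1_WT, Malt1_PD and Malt1_L88D against Vector and rose in all 3 mutants against Malt1_WT. The core proteins Gar1 and Nhp2 rose in Malt1_PD against Malt1_WT by 0.26 and 0.25, and Gar1 fell in Malt1_WT against Vector (log2 fold change -0.33 ± 0.07) where Nhp2, at -0.13, did not pass. The Dkc1 call against Malt1_WT in Malt1_PD was lost under 10 or more of 23 other settings. Exons of Dkc1 overlap Mpp1 and those of Nhp2 overlap Rmnd5b, each on the opposite strand.

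The 12 small-subunit genes were split. In Malt1_WT against Vector 3 fell, Wdr43, Tsr1 and Utp20, and Nop14 rose. These were 25% and 8.33% of the 12, where 27.7% of all genes fell and 27.2% rose. The share that fell was thus near that of all genes. In Malt1_PD against Vector 5 rose, or 41.7%, and 0 fell, where 22.8% of all genes rose and 22.0% fell. Nop14 (GRCm38 chr5:34638536-34660148, minus strand), a processome protein, had 181, 175 and 183 CPM in Malt1_PD, 160.3, 163 and 159.9 CPM in Malt1_V87R, 166, 159 and 156 CPM in Malt1_L88D, 189, 189 and 184 CPM in Malt1_WT, and 162, 163 and 162 CPM with the vector. The Malt1_WT and Malt1_PD libraries lay above those of the other 3 groups, which overlapped. Nop14 rose in Malt1_WT (0.21 ± 0.04, adjusted p = 2.8e-05) and Malt1_PD (0.15 ± 0.04) against Vector and fell in Malt1_V87R and Malt1_L88D against Malt1_WT, both with a log2 fold change of -0.22. Its exons overlap Gm15522 on the other strand.

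Ltv1, an assembly factor that leaves the small subunit late, had 109, 106 and 112 CPM in Malt1_PD, 91.9, 97.3 and 94.4 CPM in Malt1_V87R, 86.9, 87.998 and 87.8 CPM in Malt1_L88D, 97.6, 99.2 and 103 CPM in Malt1_WT, and 100.005, 95.5 and 89.8 CPM with the vector. The Malt1_PD libraries were the highest and those of Malt1_L88D the lowest of all, with no overlap. Ltv1 rose in Malt1_PD against Vector (0.20 ± 0.05) and Malt1_WT (0.13 ± 0.05), and fell in Malt1_L88D against Malt1_WT (-0.19 ± 0.05, adjusted p = 0.0013). The rise against Malt1_WT was lost under 10 or more of 23 other settings.

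Wdr43, part of the complex that first joins the precursor RNA, went the other way and had 255, 272 and 256 CPM in Malt1_PD, 285, 289 and 286 CPM in Malt1_V87R, 283, 279 and 262 CPM in Malt1_L88D, 237, 254 and 240.3 CPM in Malt1_WT, and 277, 285 and 272 CPM with the vector. Malt1_WT lay below all others. It fell in Malt1_WT against Vector (-0.19 ± 0.04, adjusted p = 0.00016) and rose in Malt1_V87R (0.23 ± 0.04) and Malt1_L88D (0.17 ± 0.04) against Malt1_WT. Tsr1, a GTPase-like factor of late small-subunit assembly, had 107, 116 and 109 CPM in Malt1_PD, 105, 110.3 and 112 CPM in Malt1_V87R, 105, 108 and 105 CPM in Malt1_L88D, 98.2, 102 and 90.9 CPM in Malt1_WT, and 106, 114 and 109 CPM with the vector. Its Malt1_WT libraries were again the lowest, and the other groups overlapped. It rose in all 3 mutants against Malt1_WT, by 0.19 in Malt1_PD, 0.17 in Malt1_V87R and 0.13 in Malt1_L88D.

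Among the others, Utp14a, a partner of the processome's helicase, rose in Malt1_PD against Vector (0.20 ± 0.05), and so did Utp15 (0.16 ± 0.05) and Wdr75 (0.21 ± 0.08), which belong to the same early complex as Wdr43. Rrp12, an export factor, fell in Malt1_L88D against both Vector (-0.24 ± 0.06) and Malt1_WT (-0.18 ± 0.06). Noc4l, the partner of Nop14 in yeast, was the 1 gene of the 40 that rose in either substitution against Vector, and is named for that after its values were seen. It had 60.2, 49.3 and 53.3 CPM in Malt1_PD, 68.2, 63.3 and 65.1 CPM in Malt1_V87R, 68.0, 66.0 and 62.9 CPM in Malt1_L88D, 62.8, 58.3 and 58.9 CPM in Malt1_WT, and 56.5, 56.5 and 55.9 CPM with the vector. All libraries of Malt1_V87R and Malt1_L88D lay above those of Vector, with log2 fold changes of 0.22 ± 0.06 (adjusted p = 0.012) and 0.22 ± 0.06 (adjusted p = 0.0089). Heatr1 and Utp18 passed no pairwise test.

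Of the 11 large-subunit genes, 7 fell and 1 rose in Malt1_WT against Vector. These were 63.6% and 9.09%, where 27.7% of all genes fell and 27.2% rose. The calls of Bop1 and Nop2 among the 7 were lost under 10 or more of 23 other settings. Noc2l, which in yeast pairs with the other Noc proteins on the pre-ribosome (GRCm38 chr4:156236010-156247616, plus strand), had 270.0, 239 and 258 CPM in Malt1_PD, 289, 282 and 304 CPM in Malt1_V87R, 286, 288 and 279.9 CPM in Malt1_L88D, 244, 231 and 238 CPM in Malt1_WT, and 324, 304 and 322 CPM with the vector. The Vector libraries were the highest, with the lowest of them just under the highest of Malt1_V87R, and those of Malt1_WT were the lowest, overlapping Malt1_PD. Noc2l fell in Malt1_WT by 0.41 on the log2 scale (± 0.04, adjusted p = 2.1e-09), in Malt1_PD by 0.31 and in Malt1_L88D by 0.15, and rose in Malt1_V87R (0.30 ± 0.04) and Malt1_L88D (0.26 ± 0.04) against Malt1_WT. Its exons overlap Samd11 on the other strand.

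Gnl3, the GTPase nucleostemin, had 188, 179.8 and 183 CPM in Malt1_PD, 184, 186 and 185 CPM in Malt1_V87R, 177, 174 and 171 CPM in Malt1_L88D, 157, 161 and 158 CPM in Malt1_WT, and 192, 191 and 180.5 CPM with the vector. All Malt1_WT libraries were below all others, those of Malt1_L88D came next, and the remaining 3 groups overlapped. It fell in Malt1_WT against Vector (-0.24 ± 0.04, adjusted p = 3.4e-06) and rose in Malt1_PD (0.21 ± 0.04), Malt1_V87R (0.22 ± 0.04) and Malt1_L88D (0.13 ± 0.04) against Malt1_WT. Rrp1b, a nucleolar protein of pre-ribosomes, had 138, 139 and 143 CPM in Malt1_PD, 143, 133 and 132 CPM in Malt1_V87R, 128, 128 and 129 CPM in Malt1_L88D, 119, 124 and 119 CPM in Malt1_WT, and 145, 148 and 136 CPM with the vector. Malt1_WT was again the lowest, with a log2 fold change of -0.25 ± 0.04 against Vector (adjusted p = 1.9e-05) and of 0.22 ± 0.04 for Malt1_PD against Malt1_WT. Exons of Gnl3 contain snoRNA genes and overlap Pbrm1, and those of Rrp1b overlap Hsf2bp.

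Noc3l and Ddx21 departed from this direction. Noc3l, another Noc protein, had 57.8, 67.6 and 61.3 CPM in Malt1_PD, 53.1, 58.8 and 61.2 CPM in Malt1_V87R, 57.4, 56.0 and 55.2 CPM in Malt1_L88D, 59.1, 65.0 and 62.1 CPM in Malt1_WT, and 51.8, 56.4 and 51.5 CPM with the vector. No Vector library reached Malt1_WT or Malt1_PD, and 1 of the 3 lay within the ranges of Malt1_V87R and Malt1_L88D. It rose in Malt1_WT (0.22 ± 0.06, adjusted p = 0.0028) and Malt1_PD (0.23 ± 0.06) against Vector. Ddx21, an RNA helicase that acts both on ribosomal RNA and on RNA polymerase II genes, had 619.6, 632 and 628 CPM in Malt1_PD, 579.7, 580.1 and 582 CPM in Malt1_V87R, 576, 568 and 554 CPM in Malt1_L88D, 614, 609 and 588 CPM in Malt1_WT, and 586, 603 and 579 CPM with the vector. All Malt1_PD libraries lay above all others and all those of Malt1_L88D below, by small steps. It rose in Malt1_PD against Vector (0.09 ± 0.03, adjusted p = 0.029) and fell in Malt1_L88D against Malt1_WT (-0.09 ± 0.03, adjusted p = 0.022).

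Of the 3 proteins of the PeBoW complex, which matures the large subunit, Bop1 (-0.10 ± 0.04) and Pes1 (-0.12 ± 0.04) fell in Malt1_WT against Vector and Wdr12 did not pass (-0.14 ± 0.09). Nop2, a methyltransferase of large-subunit RNA (-0.10 ± 0.04), and Nop16 (-0.19 ± 0.06) fell too. Nop16 also fell in Malt1_L88D against Vector (-0.22 ± 0.06) and, with Nip7 (0.13 ± 0.04), rose in Malt1_PD against Malt1_WT (0.23 ± 0.06). The Nip7 call was lost under 10 or more of 23 other settings.

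Of the 3 abundant nucleolar proteins, Npm1 and Mybbp1a each passed 1 pairwise test and Ncl none. Npm1, nucleophosmin, had 2195, 2059 and 2202 CPM in Malt1_PD, 2149, 2180.1 and 2189 CPM in Malt1_V87R, 2005, 2009 and 2009 CPM in Malt1_L88D, 2033, 2037 and 2002 CPM in Malt1_WT, and 2232, 2044 and 2086 CPM with the vector. Its Malt1_V87R libraries were above all those of Malt1_L88D and Malt1_WT, and it rose in Malt1_V87R against Malt1_WT (0.10 ± 0.03, adjusted p = 0.015). Mybbp1a, a nucleolar Myb-binding protein, had 849, 800.2 and 863 CPM in Malt1_PD, 798, 802 and 807 CPM in Malt1_V87R, 813, 795 and 796 CPM in Malt1_L88D, 830.3, 786 and 783 CPM in Malt1_WT, and 869, 842 and 841 CPM with the vector. The Malt1_WT libraries were below those of Vector. It fell in Malt1_WT against Vector (-0.09 ± 0.03, adjusted p = 0.032), a call lost under 10 or more of 23 other settings. Ncl passed no test, with an adjusted p of 0.62 over the 5 groups.

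Malt1_WT against Vector asks what the wild-type construct changed. Of the 40 genes 20 fell, 50%, where 27.7% of all genes tested fell, and 2 rose, Nop14 and Noc3l, where 27.2% of all genes rose. The median log2 fold change was -0.11 for the 40 genes and -0.01 for all genes. Among the 7441 genes within the range of mean CPM of the 40, 38.0% fell and 31.0% rose. The smallest of these falls was that of Mybbp1a, at -5.99%, and the largest that of Nop10, at -31.4%. Of the 40, 0 reached 1.5-fold, which 8.32% of all genes did downward and 13.5% upward. Without Malt1_WT replicate 3 the fallen genes numbered 12, and the risen ones 4 without it or without Malt1_PD replicate 1 and 5 without Malt1_PD replicate 2. The summed level of 16 cell division genes was 1979 ± 16.9 CPM in Malt1_WT, against 4323 ± 71.0 CPM in Vector, and 16 of the 16 fell. That of 15 macrophage and dendritic markers, of which 8 passed the filter, was 38.6 to 45.1 CPM in Malt1_WT, against 21.3 to 23.8 CPM in Vector. Fcgr3 and Aif1 were at 0 in Vector, but had only 2 and 9 counts over all 15 libraries. Over these libraries Cd68 was at 10.6 to 26.8 CPM and Lyz2 at 2.38 to 19.6 CPM. Ptprc, C1qa, C1qb, C1qc, Itgam, Tyrobp, Fcgr3 and Aif1 stayed under 1 CPM in every library. The part of the cell division genes or of these markers in the result was not tested.

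In Malt1_PD against Vector 8 of the 40 genes rose, or 20%, and 7 fell, or 17.5%. Of all genes 22.8% rose and 22.0% fell, and of those in the same range of mean CPM 28.8% and 29.5%. Neither share of the 40 stood above these. The risen genes were Myc, 5 small-subunit genes, Noc3l and Ddx21. The fallen genes were Polr1a, Fbl, Nop58, Dkc1, Nop10, Nolc1 and Noc2l. The median log2 fold change of the 40 was -0.01. Cell division genes summed to 2268 ± 38.1 CPM in Malt1_PD against 4323 ± 71.0 CPM with the vector, and 16 of 16 fell, and the macrophage and dendritic sum was 45.2 to 49.5 CPM in Malt1_PD. Their part in the result was not tested. With library totals alone as the scale, 5 rose and 10 fell, and with upper-quartile scaling 6 rose and 9 fell. Without Malt1_PD replicate 2, 10 rose and 9 fell.

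In Malt1_V87R against Vector 1 of the 40 genes rose, Noc4l, where 7.01% of all genes rose, and 3 fell, Myc, Polr1b and Pes1, where 4.70% fell. In the same range of mean CPM, 9.35% of genes rose and 7.30% fell. The median log2 fold change was -0.05. The fallen genes were 6 with library totals alone, 8 without Malt1_PD replicate 2, 6 without Malt1_V87R replicate 3 or Vector replicate 2, and 1 without Malt1_V87R replicate 2 or Vector replicate 3, and Noc4l did not pass without Malt1_V87R replicate 1.

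In Malt1_L88D against Vector 15 fell, where 8.43% of all genes fell, and 1 rose, Noc4l, where 8.96% rose. In the same range of mean CPM, 13.6% fell and 11.4% rose. Myc, Polr1b, 2 box C/D genes, all 5 box H/ACA genes, Rrp12 and 5 large-subunit genes made up the 15, and the median log2 fold change was -0.11. The calls of Nop58 and Gnl3 were lost under 10 or more of 23 other settings. The count of 15 was 5 without Vector replicate 1 and 9 without Malt1_L88D replicate 2 or 3, and Noc4l did not pass without Malt1_L88D replicate 1. Cell division genes summed to 4133 ± 61.5 CPM in Malt1_V87R, 3990 ± 67.9 CPM in Malt1_L88D and 4323 ± 71.0 CPM with the vector. Against Vector, 8 of the 16 fell and 1 rose in Malt1_V87R, where 4.70% of all genes fell and 7.01% rose. In Malt1_L88D 11 of the 16 fell and 0 rose. The macrophage and dendritic sum was 18.6 to 22.9 CPM in Malt1_V87R and 23.9 to 45.0 CPM in Malt1_L88D. The part of either was not tested.

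Malt1_PD against Malt1_WT compares forms that the labels tell apart by the PD change. Of the 40 genes 18 rose, 45%, where 12.6% of all genes rose and 21.1% of those in the same range of mean CPM. Polr1a alone fell, where 10.7% of all genes and 12.6% of those in that range fell. The median log2 fold change was 0.10 for the 40 genes and 0.01 for all genes. The 18 were Myc, 3 polymerase I subunits, 2 box C/D genes, all 5 box H/ACA genes, 3 small-subunit and 4 large-subunit genes, of which the calls of Polr1e, Dkc1, Rrp12, Ltv1 and Nip7 were lost under 10 or more of 23 other settings. The count of 18 was 6 without Malt1_WT replicate 3 and 11 without Malt1_WT replicate 2. It was 7 without Malt1_PD replicate 1, where 2 fell, and 8 without Malt1_PD replicate 3. It was 21 without Malt1_PD replicate 2, the library farthest from its group. The number of risen genes over all genes moved as well. It was 1834 with all libraries, 1107 without Malt1_PD replicate 1, 1177 without replicate 3 and 2085 without replicate 2. With upper-quartile scaling 13 of the 40 rose, and over all genes 1365 rose and 1766 fell, where TMM scaling gave 1834 and 1565. Cell division genes summed to 2268 ± 38.1 CPM in Malt1_PD and 1979 ± 16.9 CPM in Malt1_WT. Of the 8 tested macrophage and dendritic markers, 3 rose and 1 fell. The part of either in the result was not tested.

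In both substitutions most snoRNP genes rose and Myc fell against Malt1_WT. In Malt1_V87R 13 of the 40 rose, where 24.9% of all genes rose, and 2 fell, Myc and Nop14, where 23.4% fell. In Malt1_L88D 9 rose, where 22.8% rose, and 6 fell, where 22.3% fell. The risen genes were 32.5% and 22.5% of the 40, and among genes in the same range of mean CPM 34.7% and 31.1% rose, so neither share stood above that of the same range. In that range 27.3% fell in each comparison. The 13 of Malt1_V87R were 3 box C/D genes, 4 box H/ACA genes, Wdr43, Tsr1, Noc2l, Gnl3, Rrp1b and Npm1. The 9 of Malt1_L88D were Fbl, Nop56, Dkc1, Nop10, Nolc1, Tsr1, Wdr43, Noc2l and Gnl3, and the 6 that fell were Myc, Utp14a, Nop14, Rrp12, Ltv1 and Ddx21. The median log2 fold change was 0.04 in Malt1_V87R and 0.00 in Malt1_L88D, against 0.02 for all genes in both. In Malt1_V87R 5 fell without its replicate 3. In Malt1_L88D 5 rose without Malt1_WT replicate 3, and 3 fell without Malt1_L88D replicate 3. With library totals alone, 13 rose and 4 fell in Malt1_L88D. All 16 cell division genes rose in both. Of the 8 tested macrophage and dendritic markers, 6 fell in Malt1_V87R, and 4 fell and 2 rose in Malt1_L88D. The part of either in the result was not tested.

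**Figure D4:**
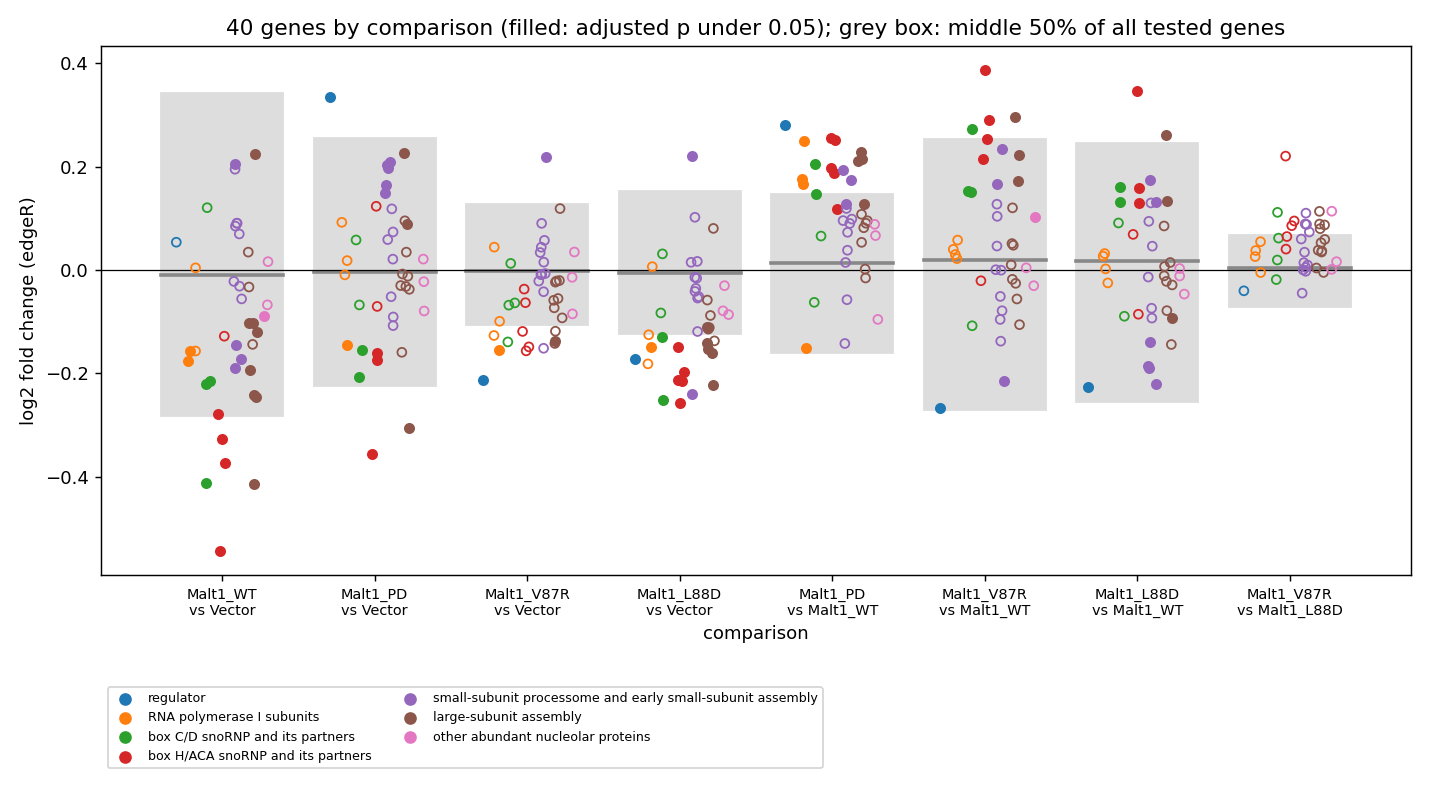
Log2 fold changes of the 40 genes (points, coloured by role) in 8 comparisons, filled where the adjusted p was under 0.05, with the middle 50% of all tested genes as a grey box and their median as a line. Most points of Malt1_WT against Vector lay below 0 and most of Malt1_PD against Malt1_WT above it, and none was filled for Malt1_V87R against Malt1_L88D.

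Malt1_V87R and Malt1_L88D, neighbouring substitutions in the death domain, were not told apart by any of the 40 genes: edgeR's quasi-likelihood test called 0 of the 40 and 0% of all genes, and DESeq2 and limma-voom also called 0 of the 40. At an unadjusted p under 0.05 there were 5 of the 40 and 852 of all genes. The fold ran from 0.969 to 1.17 over the 40 genes, and the 95% intervals from 0.859 to 1.29. Gar1 had the largest difference, at 1.17-fold with an interval of 1.05 to 1.29, and Npm1 was 1.08-fold with 1.03 to 1.14. With only their 6 libraries fitted, Npm1 rose. These intervals do not show that the forms act alike. Malt1_V87R lay above Malt1_L88D without overlap in 10 of the 40 genes and below it in 0, against 8.28% and 6.76% of all genes.

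Genes around the pathway were counted from lists that share no gene with the 40. Over all genes tested, 27.7% fell and 27.2% rose in Malt1_WT against Vector, with a median log2 fold change of -0.01. Of 24 tested Myc targets outside ribosome assembly, 19 fell and 3 rose in Malt1_WT against Vector (median -0.20), and 13 rose and 3 fell in Malt1_PD against Malt1_WT, where 12.6% of all genes rose and 10.7% fell. Odc1, the first enzyme of polyamine synthesis, was among those that rose in Malt1_WT against Vector: it had 3772 ± 105 CPM in Malt1_PD, 4148 ± 84.5 in Malt1_WT and 1803 ± 36.0 with the vector. The cyclin gene Ccnd2 rose as well in Malt1_WT against Vector (0.65 ± 0.05), and Eif4e, the cap-binding factor, fell (-0.36 ± 0.04). Of 13 tested genes of the Myc network, 6 rose and 3 fell in Malt1_WT (median 0.33) and 8 rose and 1 fell in Malt1_PD against Vector (median 0.22), where 22.8% of all genes rose and 22.0% fell. Mxd1, which competes with MYC for MAX, had 26.5 ± 0.951 CPM in Malt1_PD, 44.2 ± 2.34 in Malt1_WT and 11.9 ± 2.10 with the vector. It rose 3.75-fold in Malt1_WT against Vector and fell to 0.599 times the Malt1_WT level in Malt1_PD. Mxi1, of the same family, and Mlx, a MAX-like partner, rose in Malt1_WT by 0.62 ± 0.04 and 0.68 ± 0.06.

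Of 13 further RNA polymerase I genes and factors, 8 fell and 3 rose in Malt1_WT against Vector (median -0.21). The factor Ubtf, which binds ribosomal DNA, fell (-0.45 ± 0.04), as did Tcof1, a nucleolar cofactor (-0.44 ± 0.04), and the initiation factor Rrn3 rose (0.29 ± 0.04). Ubtf rose in Malt1_PD against Malt1_WT (0.29 ± 0.04). Of 10 snoRNP assembly factors 5 fell and 2 rose in Malt1_WT against Vector (median -0.05). The core protein Snu13 (-0.22 ± 0.04) and Rpap3 (-0.25 ± 0.05) fell and Nufip1 rose (0.30 ± 0.05).

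Among 35 more small-subunit factors, 9 fell and 3 rose in Malt1_WT against Vector (median -0.05), and 8 rose and 2 fell in Malt1_PD against Vector, or 22.9% and 5.71%, so the share that rose was near the 22.8% of all genes. Wdr46 (-0.37 ± 0.05) and Emg1, a methyltransferase of small-subunit RNA (-0.28 ± 0.05), fell in Malt1_WT and Esf1 rose (0.29 ± 0.04). Among 37 more large-subunit factors, 12 fell and 7 rose in Malt1_WT against Vector (median -0.05). Ppan (-0.38 ± 0.06) and the helicase Ddx51 (-0.48 ± 0.07) fell, and Eif6, which keeps the subunits from joining, rose (0.45 ± 0.05). In Malt1_PD against Malt1_WT, 8 of the 35 and 9 of the 37 rose, or 22.9% and 24.3%, where 12.6% of all genes rose and 21.1% of those in the 40 genes' range of mean CPM.

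Of 13 RNA exosome genes, whose product trims ribosomal RNA, 8 fell and 1 rose in Malt1_WT against Vector (median -0.27). Exosc8 (-0.59 ± 0.05) and the helicase Mtrex (-0.27 ± 0.04) fell, and Mphosph6, which binds the exosome, rose (0.86 ± 0.05). Of 20 RNA polymerase III genes, 7 fell and 2 rose (median -0.08), and Maf1, the repressor of that polymerase, fell (-0.58 ± 0.05) with Gtf3c4 (-0.31 ± 0.05) and Gtf3c5 (-0.45 ± 0.07).

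Of 10 tested genes of nucleolar surveillance, by which p53 answers failed ribosome assembly, 4 rose and 3 fell in Malt1_WT against Vector (median -0.04). Cdkn1a, a cell cycle inhibitor and p53 target, had 844 ± 37.2 CPM in Malt1_PD, 1043 ± 41.4 in Malt1_WT and 283 ± 5.73 with the vector. Mdm2, the ligase that removes p53, had 266 ± 6.08 CPM in Malt1_PD, 351 ± 6.08 in Malt1_WT and 159.7 ± 3.20 with the vector. Both rose in Malt1_WT and in Malt1_PD against Vector, and both were lower in Malt1_PD than in Malt1_WT (log2 fold changes -0.31 ± 0.04 and -0.40 ± 0.04). Rpl11, a ribosomal protein that binds MDM2, fell in Malt1_WT (-0.43 ± 0.06). The division genes Mki67, Cdc20 and Ccna2 fell in Malt1_WT against Vector with log2 fold changes of -2.17, -2.29 and -1.80, beyond the range of the 40 genes.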

How the data were processed

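RNA sequencing was done on 15 libraries of E0771 cells, 3 for each of 5 groups. Per the labels' protocols, libraries came from total RNA with a kit that keeps the strand (NEBNext Ultra II Directional), and paired ends were read on a NovaSeq. The authors deposited raw counts per gene symbol, whole numbers that were not normalized. Per the submitters' processing notes, the tools were featureCounts 1.6.3, STAR 2.7.3a and Trim Galore 0.6.0, with GRCm38.p6 as the genome. The counting annotation, its strand setting and how multi-mapped reads were treated: not given in the sources used here. Of 55571 gene rows, 22982 were 0 in every library.

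Columns were matched to samples by name. Those named for a cysteine substitution were assigned to Malt1_PD, the 1 construct without columns of its own name. CPM used totals scaled by TMM factors (0.973 to 1.02). edgeR 4.0.16 in R 4.3.3 was used to test the counts (filterByExpr, robust quasi-likelihood fit, 1 mean per group, two-sided, Benjamini-Hochberg over 14571 genes, threshold 0.05). The fit's common coefficient of biological variation came to 4.61%. Intervals are at 95%. Libraries of a group differed by more than sampling noise, with a chi-square of 1.94 to 8.89 per gene, so none was counted as a repeat of another. Alternatives were RLE, upper-quartile and total-count scaling, DESeq2 1.42.0, limma-voom (limma 3.58.1), no filter, only the 6 libraries compared, the replicate number as a block, and each library left out.

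The 40 genes, their roles and the surrounding gene lists were chosen with earlier results of these data known, so patterns shared with those results are not independent support. Values in every library were given for Myc and, per role, for the 2 or 3 genes of lowest adjusted p over the 5 groups and any that went against their role. From each surrounding list, up to 3 genes of lowest adjusted p in Malt1_WT against Vector were named. Gene positions, exon lengths and overlaps came from GENCODE M21 and promoter windows from RefSeq. Stretches of up to 30 bases around each motif were printed on both sides of the start, where the plan was to print the side before it only. Exons of 19 of the 40 genes overlap another annotated gene.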

Additional observations from a re-analysis of the deposited data

How the results depend on the processing

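The 106 called values of the 40 genes kept their direction in all 2438 alternative values, 2141 of which passed the test and 297 of which did not. All 23 settings kept 54 of the 106 calls. With only the 6 libraries compared, 4 of the 40 rose in Malt1_WT against Vector, 11 in Malt1_PD against Malt1_WT, and 1 in Malt1_V87R against Malt1_L88D. Over all genes 3858, 1201 and 14 rose in these comparisons, in that order. With library totals alone, 5 of the 40 rose in Malt1_PD and 6 fell in Malt1_V87R against Vector, where 2872 and 910 of all genes did. The cause was not tested. Deviations of same-numbered libraries correlated weakly (30 pairs, r from -0.05 to 0.15, median 0.02, 2 pairs over 0.1). Pairs of different number had r from -0.16 to 0.11 (60 pairs, median -0.008, 1 pair over 0.1). Of 15 libraries, 9 correlated best with their own number. The labels state no pairing, and the numbers were not taken to pair the samples. Whether a number marks a shared batch was not tested. With the replicate number as a block, 7 of the 40 fell in Malt1_V87R against Vector and 2 fell in Malt1_PD against Malt1_WT, where 906 and 1808 of all genes fell. Over all genes, 4102 rose and 4182 fell with the block in Malt1_WT against Vector, against 3958 and 4039 without it. Leaving out 1 library at a time gave 2 to 5 risen and 12 to 20 fallen genes in Malt1_WT against Vector, and 6 to 10 and 7 to 9 in Malt1_PD against Vector. It gave 0 to 1 and 1 to 8 in Malt1_V87R against Vector, and 0 to 1 and 5 to 17 in Malt1_L88D against Vector. Against Malt1_WT it gave 6 to 21 and 1 to 2 in Malt1_PD, 9 to 13 and 2 to 5 in Malt1_V87R, and 5 to 9 and 3 to 7 in Malt1_L88D. Over the 5 groups it gave 28 to 34 genes. All 40 genes had at least 261 counts in every library. How far counting depth and the 3 libraries per group each limit the precision was not tested.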

Other observations

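Mxd1, whose product competes with MYC for MAX, had 25.9, 27.6 and 26.1 CPM in Malt1_PD, 13.6, 14.3 and 15.4 CPM in Malt1_V87R, 16.9, 15.1 and 15.1 CPM in Malt1_L88D, 42.2, 43.6 and 46.8 CPM in Malt1_WT, and 10.2, 14.3 and 11.2 CPM with the vector. Its order over the groups was not that of Myc: the Malt1_WT libraries lay above all others and those of Malt1_PD came next, while Vector had the lowest mean and overlapped Malt1_V87R. It rose against Vector in Malt1_PD, Malt1_V87R, Malt1_L88D and Malt1_WT, with log2 fold changes of 1.17 ± 0.09, 0.29 ± 0.10, 0.41 ± 0.10 and 1.91 ± 0.09.

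Ncl was low for a gene that encodes an abundant nucleolar protein, with 66.7, 72.9 and 70.3 CPM in Malt1_PD, 73.1, 74.8 and 71.6 CPM in Malt1_V87R, 77.1, 73.6 and 66.5 CPM in Malt1_L88D, 75.6, 79.4 and 69.1 CPM in Malt1_WT, and 77.0, 76.5 and 68.4 CPM with the vector. All 5 groups overlapped.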
